A study of Mus musculus with 8 samples.

Results

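The nuclear to cytoplasmic ratio of polyA RNA was compared between MIN6 cells and mouse liver, gene by gene. The quantity reported is a difference of ratios: the log2 nuclear to cytoplasmic ratio in MIN6 minus the same ratio in liver. It is positive where a transcript lay more in the nuclear libraries of MIN6 than in those of liver, and negative in the opposite case. Of the 26520 genes in the deposited table, 5315 had a mean value of at least 1 FPKM (fragments per kilobase of transcript and 1000000 fragments) in the 4 libraries of each tissue, and these are the genes compared. Levels as the authors scaled them chose the genes. The deposited medians over these genes were 23.9 and 17.1 FPKM in the liver cytoplasmic libraries and at most 5.25 FPKM in the other 6, so the liver mean was set mostly by the cytoplasmic libraries. Another 702 genes reached that mean in MIN6 only and 5038 in liver only. The genes nearest to the limit were Ifnar2, with a mean of 1.00051 FPKM in its lower tissue, and Zfyve21 with 1.00079, both inside, and Fryl with 0.999982 and Arhgef25 with 0.999785, both outside.

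In animal cells an mRNA is made and spliced in the nucleus, receives its polyA tail there and is then exported through nuclear pores to be translated in the cytoplasm. Some finished transcripts stay in the nucleus for long, among them the long noncoding RNAs Neat1, Malat1 and Meg3. So do some protein-coding mRNAs such as Mlxipl, which encodes the glucose-responsive transcription factor ChREBP. The steady share of a transcript in each fraction reflects how fast it is made, exported and degraded, and a fraction measured in bulk cannot separate these steps.

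The study asked which mRNAs are held in the nucleus of mammalian tissues. It has 4 groups of 2 libraries each: nuclear and cytoplasmic RNA of MIN6, an insulin-making line from a mouse insulinoma that stands in for beta cells of the pancreas, and nuclear and cytoplasmic RNA of whole mouse liver, with no treatment named for any group. The fractions were prepared differently in the tissues, per the labels. A mild detergent opened the MIN6 cells, whose nuclei were then pelleted through a sucrose cushion, while nuclei of liver were isolated over sucrose, their chromatin was taken out, and the RNA that remained soluble is the nuclear fraction. Tissue and fraction method therefore cannot be told apart in any difference below. The strain field of the 4 liver samples reads C57BL/6, C57BL/7, C57BL/8 and C57BL/9, and no age or sex is given for the mice. The labels do not say whether the libraries of a group came from separate mice or cultures, so p-values measure only the spread between these libraries, which may be technical.

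Fractions were taken from the sample titles, because the source field of all 4 MIN6 samples names the opposite fraction. In deposited values, Neat1 read 22.5 and 28.6 FPKM in the MIN6 libraries titled nuclear and 3.05 and 2.68 FPKM in those titled cytoplasmic, and 59.1 and 48.0 FPKM in liver nuclear against 4.07 and 2.97 FPKM in liver cytoplasmic libraries. Of 10 beta-cell markers, 9 had a mean above 1 FPKM in MIN6 and 9 were listed at 0 in every liver library. Slc2a2, the exception in both, read at most 0.0545 FPKM in MIN6 libraries and 2.98 to 53.1 FPKM in liver libraries. All 10 hepatocyte markers passed a mean of 1 FPKM in liver and 2 did in MIN6, where 4, Alb among them, were listed at 0 throughout. Liver also held markers of red blood cells (5 of 5, none above 0 in MIN6), endothelium (5 of 5), Kupffer and other immune cells (7 of 7) and stellate cells (4 of 5). Of 4 cholangiocyte markers, 2 had a mean above 1 FPKM in MIN6 and 1 in liver. The summed red-cell markers ranged from 6.19 to 2292 FPKM over the 4 liver libraries. In bulk samples, fewer cells of a type and less RNA per cell cannot be told apart, and the part of these other cells in the differences was not tested.

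The deposited values were on unlike scales: their sum was 35469 FPKM in the lowest library, MIN6 nuclear replicate 1, and 1219630 FPKM in the highest, liver cytoplasmic replicate 1. Each library was therefore divided by its median over the 5315 genes and brought to a common median, and the values below are these median-centred FPKM unless named as deposited. A difference is thus relative to the median gene. Estimated reads per library, in units of 1000000, ran from 0.947 to 1.91, from the step that 1 read makes in low values. The smallest level worth reading, 3 reads on a transcript of 2 kb, was 0.191 centred FPKM in MIN6 nuclear replicate 1 and 0.732 centred FPKM in liver cytoplasmic replicate 1, so low liver cytoplasmic values are the least certain. Among the genes compared, 335 and 360 were listed at 0 in the liver cytoplasmic libraries against 42 to 77 in the MIN6 libraries.

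Most transcripts kept their side. The ratio was above 0 in both tissues or below 0 in both for 4164 of 5315 genes (78.3%). Across genes, the ratio in MIN6 and the ratio in liver had a Pearson r of 0.743 and a Spearman rho of 0.743; the tissues share no library, but genes are not independent replicates. The ratios of single library pairs correlated at 0.851 to 0.855 within MIN6, at 0.778 to 0.797 within liver and at 0.628 to 0.730 between the tissues. Over genes, the SD was 1.62 for the MIN6 ratio, 1.54 for the liver ratio and 1.13 for their difference, and the median SE of a single difference was 0.53. At an adjusted p under 0.05, 1279 genes (24.1%) were higher in the nuclear and 1739 (32.7%) in the cytoplasmic libraries of MIN6. In liver 1097 (20.6%) were higher in the nuclear and 1377 (25.9%) in the cytoplasmic libraries. Of these, 755 genes were called nuclear in both tissues and 1028 cytoplasmic in both.

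The difference itself passed the test for 86 genes: 40 (0.753%) were more nuclear in MIN6 and 46 (0.865%) were more nuclear in liver (limma, two-sided, adjusted over all 5315 genes). At an unadjusted p under 0.05 there were 661 and 711. Of the 40, 25 had a ratio above 0 in MIN6 and below 0 in liver, and of the 46, 36 had the reverse. The smallest difference called was 2.17, and the median size was 2.86 among the 40 and 2.92 among the 46. Far more genes had every one of the 4 MIN6 library pairs on one side of all 4 liver pairs: 1093 (20.6%) with all MIN6 pairs higher and 1169 (22.0%) with all liver pairs higher, including all 86 called genes.

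The number of calls rested most on 5 of the 8 libraries, and which genes were called also changed without any of the others. Without MIN6 nuclear replicate 1, MIN6 cytoplasmic replicate 1, MIN6 cytoplasmic replicate 2, liver nuclear replicate 1 or liver nuclear replicate 2, at most 3 genes passed in each direction; without MIN6 cytoplasmic replicate 1 none did, with 464 and 514 at an unadjusted p under 0.05 by limma. Without liver cytoplasmic replicate 1 the counts were 45 and 67, without liver cytoplasmic replicate 2 they were 45 and 66, and without MIN6 nuclear replicate 2 they were 33 and 33. The balance of directions followed the scaling. With the values as the authors scaled them, the median difference of all genes was 1.26 and the counts were 1412 more nuclear in MIN6 and 36 more nuclear in liver. With equal column sums the median was -0.48 and the counts were 69 and 456, and with equal upper quartiles it was -0.24 and they were 66 and 162.

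**Figure D1:**
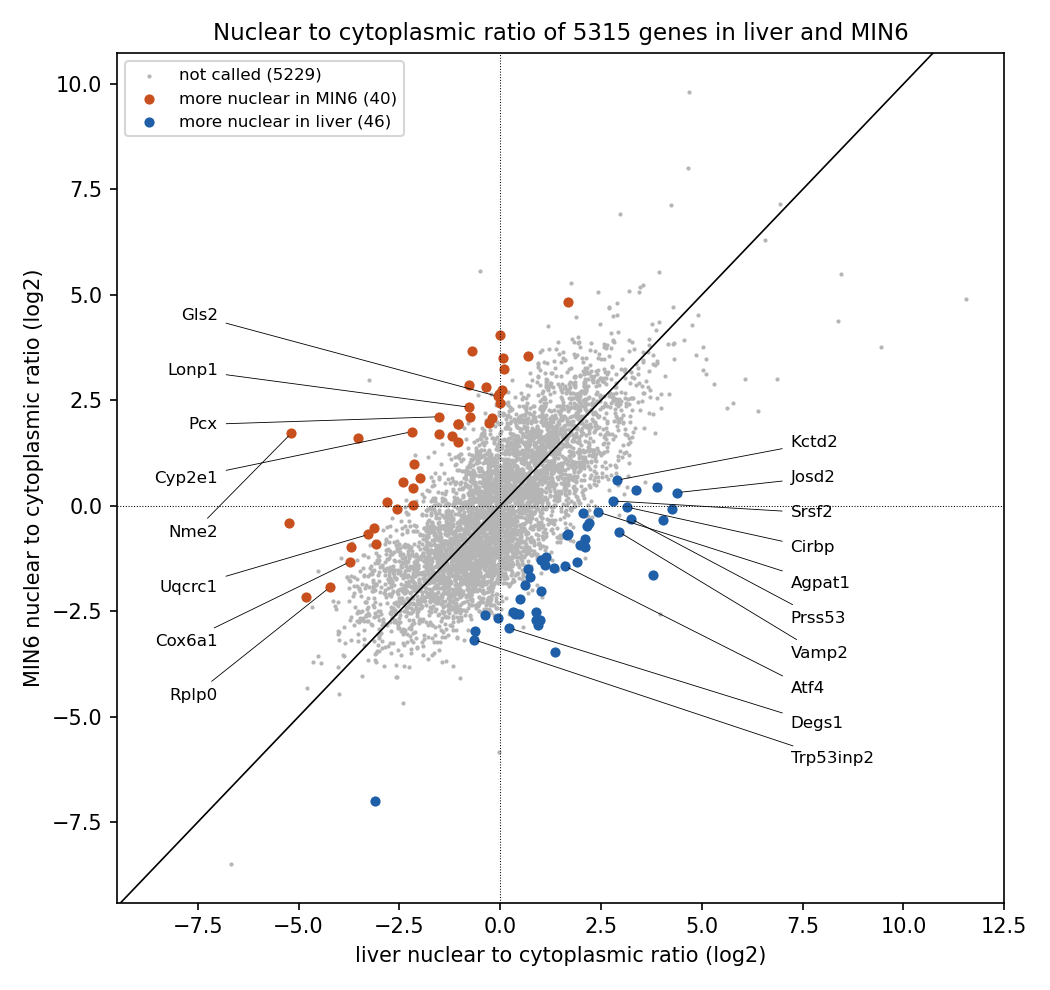
Each point is 1 of 5315 genes, with its nuclear to cytoplasmic log2 ratio in liver on the x axis and in MIN6 on the y axis; the solid line marks equal ratios. The 40 genes called more nuclear in MIN6 lie above the cloud, the 46 called more nuclear in liver below it, and labels mark the 18 called genes with the largest differences among those that reached 10 centred FPKM in the higher fraction of each tissue, had separated library pairs and carry an established symbol shared with no other gene.

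Opposite calls in the tissues were rare. In all, 18 genes were called nuclear in MIN6 and cytoplasmic in liver, and 9 of these passed the test of the difference: Nme2, Apoe, Cyp2e1, Pcx, Tm7sf2, Ift43, Cyb5rl, Aifm1 and Xrcc6. A further 15 genes were called cytoplasmic in MIN6 and nuclear in liver, and 9 of these passed: Ramp2, Slc25a51, Slc25a25, Atf4, Kctd13, Cers5, Sgpl1, Ostm1 and Tmem199. These 18 names were chosen after their values were seen. Ramp2 and Cers5 were listed at 0 in both liver cytoplasmic libraries. They passed the limit of 1 FPKM in liver through the nuclear libraries alone, so a liver ratio above 0 followed from that choice. In MIN6, Ift43 and Aifm1 reached that limit only through their nuclear libraries, as their deposited cytoplasmic values were each below 1 FPKM. Ift43 had about 2 and 4 estimated reads in MIN6 cytoplasmic libraries and about 4 and 0 in liver nuclear libraries.

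Among the transcripts more nuclear in MIN6, Pcx gave a clear pattern at moderate levels. Pcx encodes pyruvate carboxylase, the mitochondrial enzyme that turns pyruvate into oxaloacetate for gluconeogenesis in liver and for anaplerosis in beta cells; it lies on chromosome 19 from 4510472 to 4621752 on the plus strand (mm10) and has 21 exons. It measured 25.5 and 14.7 centred FPKM in MIN6 nuclear libraries and 3.39 and 4.09 in MIN6 cytoplasmic libraries. In liver it measured 11.8 and 17.6 in nuclear and 45.1 and 41.7 in cytoplasmic libraries. The nuclear libraries were thus the higher in MIN6 and the cytoplasmic libraries the higher in liver, with no overlap in either. The ratio was 2.11 ± 0.36 (SE) in MIN6 and -1.52 ± 0.36 in liver, both called, and the difference was 3.63 ± 0.51 (95% interval 2.48 to 4.78, adjusted p = 0.017).

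Lonp1 and Gls2, also nuclear-encoded mitochondrial proteins, had a nuclear excess in MIN6 and a liver ratio that was not called. Lonp1, the Lon protease of the mitochondrial matrix, measured 72.7 and 34.5 centred FPKM in MIN6 nuclear against 9.57 and 8.70 in MIN6 cytoplasmic libraries, and 11.7 and 11.7 in liver nuclear against 17.99 and 23.5 in liver cytoplasmic libraries. Its nuclear replicates in MIN6 differed more than any others of the gene, yet both lay above every other library. Gls2, the liver-type glutaminase, measured 15.3 and 14.3 in MIN6 nuclear against 1.05 and 2.34 in MIN6 cytoplasmic libraries, while the liver nuclear values of 57.2 and 52.8 fell among the liver cytoplasmic values of 66.3 and 49.2. The difference was 3.10 ± 0.55 (SE) for Lonp1 (adjusted p = 0.0331) and 2.65 ± 0.49 for Gls2 (adjusted p = 0.037).

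For other genes the ratio was below 0 in both tissues, and nearer to 0 in MIN6. Rplp0, a protein of the large ribosomal subunit, measured 41.1 and 34.0 centred FPKM in MIN6 nuclear against 149 and 142 in MIN6 cytoplasmic libraries, and 11.3 and 16.03 in liver nuclear against 246 and 296 in liver cytoplasmic libraries. The cytoplasmic libraries were higher in both tissues, with a ratio of -1.93 ± 0.32 (SE) in MIN6 and -4.22 ± 0.32 in liver, and the difference was 2.29 ± 0.45 (adjusted p = 0.0466). Cox6a1, a subunit of cytochrome c oxidase, had ratios of -1.33 and -3.72, and Uqcrc1, a core protein of respiratory complex III, had -0.68 and -3.27. Their differences were 2.40 ± 0.50 (adjusted p = 0.0483) and 2.59 ± 0.50 (adjusted p = 0.0439). Ndufs8, of complex I, differed by 2.61 ± 0.46 (adjusted p = 0.0331), with about 9 and 6 estimated reads in the liver nuclear libraries. The liver ratio of each was called cytoplasmic, while the MIN6 ratios of Uqcrc1 and Ndufs8 were not called. Scd1, the stearoyl-CoA desaturase, had the strongest cytoplasmic excess of the named genes in liver bar Nme2, with 1.92 and 3.05 in nuclear against 100.04 and 92.8 in cytoplasmic libraries, and differed by 2.65 ± 0.48 (adjusted p = 0.037). Rplp0 and Cox6a1 have processed pseudogenes, and Gstp1, a glutathione transferase with a difference of 2.17 ± 0.45 (adjusted p = 0.0483), has a near-identical neighbour in Gstp2, so reads of these genes could have been split.

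Cyp2e1, Apoe and Slc25a47, which hepatocytes express highly, were low in MIN6 and higher in its nuclear than in its cytoplasmic libraries. Other such genes were not: Ttr, the thyroid hormone carrier transthyretin, had a ratio of -2.01 in MIN6, and Clu, the chaperone clusterin, had -2.40. Cyp2e1, an ethanol- and drug-oxidising cytochrome, measured 14.0 and 6.31 centred FPKM in MIN6 nuclear and 1.32 and 3.15 in MIN6 cytoplasmic libraries. In liver it measured 293 and 341 in nuclear against 1443 and 1467 in cytoplasmic libraries. Every liver value was far above every MIN6 value, and the fractions lay in opposite order in the tissues, with ratios of 1.75 ± 0.42 (SE) and -2.20 ± 0.42 and a difference of 3.95 ± 0.60 (adjusted p = 0.024). Apoe, the lipid carrier apolipoprotein E, measured 10.8 and 4.61 in MIN6 nuclear against 3.05 and 0.770 in MIN6 cytoplasmic libraries, and 422 and 833 in liver nuclear against 6033 and 7772 in liver cytoplasmic libraries. Its difference was 5.13 ± 0.74 (adjusted p = 0.0176), with about 6 estimated reads in MIN6 cytoplasmic replicate 2. Slc25a47, a mitochondrial carrier of liver, was listed at 0 in both MIN6 cytoplasmic libraries and measured 8.97 and 4.004 in the nuclear ones, against 204 and 171 in liver nuclear and 295 and 194 in liver cytoplasmic libraries. Its fitted difference of 3.18 ± 0.56 (adjusted p = 0.0331) depends on the pseudocount and is no bound. Slc25a47 passed the level limit in MIN6 through its nuclear libraries alone, so a MIN6 ratio above 0 followed from that choice.

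Further enzymes of fat metabolism, and another mitochondrial carrier, were called in the same direction. Acads, the short-chain acyl-CoA dehydrogenase of mitochondrial fatty acid oxidation, measured 4.02 and 3.55 centred FPKM in MIN6 nuclear against 2.18 and 2.34 in MIN6 cytoplasmic libraries, and 27.9 and 14.6 in liver nuclear against 116 and 109.6 in liver cytoplasmic libraries. Its liver ratio of -2.42 ± 0.36 (SE) was called and its MIN6 ratio of 0.55 ± 0.36 was not, and the difference was 2.97 ± 0.50 (adjusted p = 0.0331). Tm7sf2, a sterol reductase of cholesterol synthesis, had a called ratio of 1.00 in MIN6 and of -2.14 in liver, with a difference of 3.14 ± 0.43 (adjusted p = 0.017); 12.1% of its exon length is shared with Vps51. Slc25a23, a calcium-dependent ATP-magnesium carrier of mitochondria, differed by 2.65 ± 0.46 (adjusted p = 0.0331).

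The largest difference belonged to Nme2, one of a pair of adjacent nucleoside diphosphate kinase genes on chromosome 11 (93949814 to 93956259, minus strand, mm10). Nme2 measured 35.3 and 28.2 centred FPKM in MIN6 nuclear against 6.55 and 11.9 in MIN6 cytoplasmic libraries, and 0.294 and 0.165 in liver nuclear against 99.0 and 18.8 in liver cytoplasmic libraries. The liver nuclear values correspond to about 1 estimated read each, and the liver cytoplasmic replicates differed widely. The difference was 6.90 ± 0.90 (SE, adjusted p = 0.017). Nme2 shares 48.9% of its exon length with Gm20390, a readthrough gene that joins Nme1 and Nme2, and all exons of Gm20390 are shared. Gm20390 was called in the opposite direction, with a difference of -3.90 (adjusted p = 0.0286), and measured 0.0448 and 0.173 in MIN6 nuclear against 139.8 and 140.1 in MIN6 cytoplasmic libraries. Nme1 differed by -0.09 (adjusted p = 0.916). When the 3 genes were summed, MIN6 had levels of 36.7 and 29.2 in nuclear against 152 and 158 in cytoplasmic libraries, and liver had 8.42 and 13.2 in nuclear against 161 and 162 in cytoplasmic libraries. The summed ratio was below 0 in both tissues, at -2.21 in MIN6 and -3.81 in liver, a difference of 1.60 that was not tested. The called differences of Nme2 and Gm20390 are uncertain for this reason.

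Among the transcripts more nuclear in liver, Josd2 had the largest difference of the genes named by rule. It encodes a Josephin-domain deubiquitinase (chromosome 7, 44467980 to 44471662, plus strand, 5 exons). It measured 14.1 and 11.8 centred FPKM in MIN6 nuclear against 9.47 and 10.9 in MIN6 cytoplasmic libraries, and 74.9 and 89.3 in liver nuclear against 3.75 and 2.26 in liver cytoplasmic libraries. In MIN6 the fractions were close, and in liver the nuclear values were far above the cytoplasmic ones. The ratio was 0.31 ± 0.33 (SE) in MIN6 and 4.39 ± 0.33 in liver, and the difference was -4.08 ± 0.46 (95% interval -5.12 to -3.04, adjusted p = 0.017). The liver cytoplasmic values rest on about 7 and 4 estimated reads.

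RNA-binding and transcription proteins were among the genes called in this direction. Cirbp, a cold-inducible RNA-binding protein, measured 11.3 and 13.4 centred FPKM in MIN6 nuclear against 11.6 and 13.7 in MIN6 cytoplasmic libraries, and 30.8 and 27.0 in liver nuclear against 1.88 and 2.88 in liver cytoplasmic libraries. The MIN6 fractions overlapped and the liver fractions did not, and the difference was -3.19 ± 0.45 (SE, adjusted p = 0.017). Srsf2, a splicing factor of the SR family whose own transcripts are known to include unproductive forms, measured 15.1 and 27.4 in MIN6 nuclear against 21.2 and 16.6 in MIN6 cytoplasmic libraries, and 102 and 96.3 in liver nuclear against 12.9 and 13.7 in liver cytoplasmic libraries. Its difference was -2.70 ± 0.50 (adjusted p = 0.037), and 25.3% of its exon length is shared with Mettl23 and Mfsd11. Luc7l2, a protein associated with the U1 snRNP, had liver nuclear levels of 57.1 and 39.5 against 3.598 and 3.86 in liver cytoplasmic libraries, and differed by -2.98 ± 0.47 (adjusted p = 0.0281); it shares 18.9% of its exon length with Gm26699.

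Atf4, the transcription factor of the amino acid and stress response, was called cytoplasmic in MIN6 and nuclear in liver. It measured 7.75 and 21.3 centred FPKM in MIN6 nuclear against 36.7 and 36.2 in MIN6 cytoplasmic libraries, and 49.3 and 56.9 in liver nuclear against 18.2 and 15.4 in liver cytoplasmic libraries. The fractions did not overlap in either tissue and stood in opposite order, with ratios of -1.42 ± 0.43 (SE) and 1.60 ± 0.43 and a difference of -3.03 ± 0.60 (adjusted p = 0.0466). Slc25a25 and Slc25a51, mitochondrial carriers of ATP-magnesium and of NAD, were arranged alike. Slc25a25 measured 1.63 and 2.20 in MIN6 nuclear against 5.15 and 9.62 in MIN6 cytoplasmic libraries, and 80.3 and 77.6 in liver nuclear against 29.3 and 31.7 in liver cytoplasmic libraries. The differences were -2.82 ± 0.49 for Slc25a25 (adjusted p = 0.0331) and -3.08 ± 0.48 for Slc25a51 (adjusted p = 0.0266).

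Of the genes of vesicle fusion and transport, Vamp2 and Rab3a were called. Both belong to the exocytosis of insulin granules: Vamp2 is a SNARE of the vesicle and Rab3a a small GTPase on it. Vamp2 measured 3.40 and 12.9 centred FPKM in MIN6 nuclear against 11.3 and 10.6 in MIN6 cytoplasmic libraries, and 14.9 and 20.1 in liver nuclear against 2.01 and 0.883 in liver cytoplasmic libraries. The MIN6 nuclear replicates lay on either side of the cytoplasmic ones, and the liver fractions did not overlap. Rab3a was cytoplasmic in MIN6, with 2.39 and 2.83 in nuclear against 21.2 and 17.96 in cytoplasmic libraries, and near the limit of reading in liver, with 2.32 and 0.881 in nuclear against 0 and 0.845 in cytoplasmic libraries. The difference was -3.56 ± 0.72 (SE) for Vamp2 (adjusted p = 0.047) and -3.39 ± 0.57 for Rab3a (adjusted p = 0.0331).

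Lipid enzymes appeared in this direction too, as did Trp53inp2 and Kctd2, which are not lipid enzymes. Degs1, the desaturase that makes ceramide from dihydroceramide, measured 1.77 and 1.72 centred FPKM in MIN6 nuclear against 21.1 and 18.04 in MIN6 cytoplasmic libraries, and 9.75 and 18.7 in liver nuclear against 8.35 and 15.4 in liver cytoplasmic libraries. Its RNA was cytoplasmic in MIN6 and spread over both fractions in liver, with a difference of -3.13 ± 0.57 (SE, adjusted p = 0.037). Trp53inp2, a protein of autophagy and nuclear receptor function, was arranged alike, with ratios of -3.17 in MIN6 and -0.65 in liver and a difference of -2.52 ± 0.52 (adjusted p = 0.0483). Agpat1, an acyltransferase of phosphatidic acid synthesis, measured 15.9 and 13.1 in MIN6 nuclear against 17.3 and 15.0 in MIN6 cytoplasmic libraries, and 11.8 and 10.9 in liver nuclear against 1.71 and 0.908 in liver cytoplasmic libraries. It differed by -2.59 ± 0.45 (adjusted p = 0.0331), and Kctd2, an adaptor of cullin ubiquitin ligases, by -2.29 ± 0.43 (adjusted p = 0.037).

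Other genes called in this direction carry a limit of their own. Mrpl18, a mitochondrial ribosomal protein, measured 102 and 124 centred FPKM in liver nuclear against 4.12 and 8.42 in liver cytoplasmic libraries and between 4.88 and 8.96 in all MIN6 libraries. Its difference was -4.36 ± 0.55 (SE, adjusted p = 0.017), and 10.1% of its exon length is shared with Tcp1. Prss53, a serine protease, differed by -3.54 ± 0.48 (adjusted p = 0.017) but shares 84.0% of its exon length with Zfp646 and Gm21974. Polr2g, a subunit of RNA polymerase II, and Ids, a lysosomal sulfatase, were cytoplasmic in MIN6 and had at most about 11 estimated reads in any liver library. They differed by -3.03 ± 0.62 (adjusted p = 0.0483) and by -2.35 ± 0.48 (adjusted p = 0.0483). In liver, Ids measured 0.0632 and 0 in nuclear against 0.971 and 0.265 in cytoplasmic libraries, so the cytoplasmic values were the higher there too. All lie below the 1 added before the log, so the fitted liver ratio of Ids depends on the pseudocount. In all, 20 of the 46 genes had under 10 estimated reads in both liver cytoplasmic libraries, among them Josd2, Cirbp, Agpat1, Vamp2 and Prss53. Of the 46, 12 shared at least 10% of their exon length with another gene. Of the 40 genes more nuclear in MIN6, 7 had under 10 estimated reads in both MIN6 cytoplasmic libraries, and 4 shared exons to that extent.

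**Figure D2:**
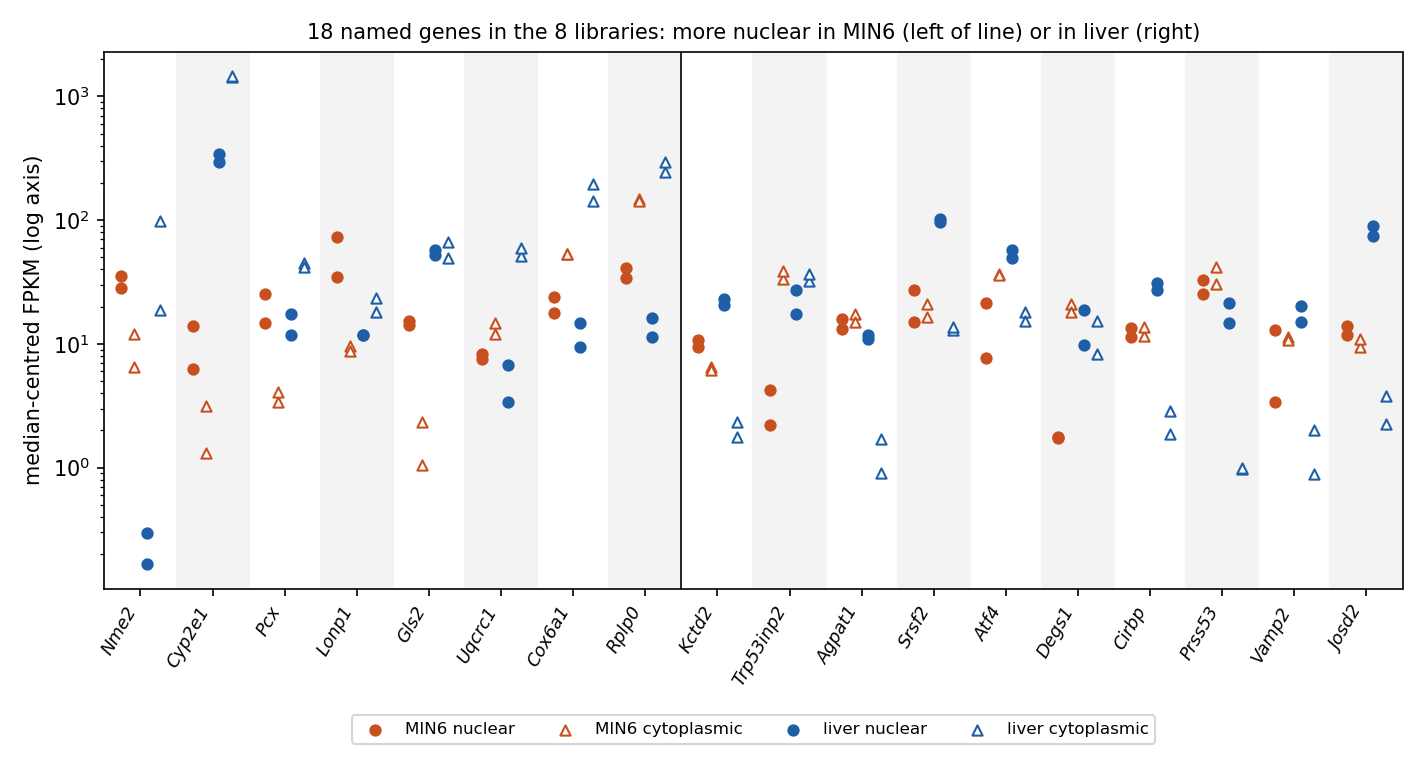
Median-centred FPKM on a log axis for the 18 genes named by rule, with 1 point for each of the 8 libraries (filled circles nuclear, open triangles cytoplasmic). Left of the line, nuclear values lie higher relative to cytoplasmic ones in MIN6 than in liver; right of it, the order is reversed, and the liver cytoplasmic values of Josd2, Cirbp, Agpat1, Vamp2, Kctd2 and Prss53 lie below 4.

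The transcripts best known as nuclear did not pass the test of the difference. Mlxipl measured 511 and 345 centred FPKM in MIN6 nuclear against 12.9 and 8.08 in MIN6 cytoplasmic libraries, and 278 and 310 in liver nuclear against 24.1 and 24.7 in liver cytoplasmic libraries. It was called nuclear in both tissues, at ratios of 5.22 ± 0.35 (SE) and 3.54 ± 0.35. The difference was 1.69, with a 95% interval from 0.58 to 2.79 (adjusted p = 0.0852), and all MIN6 pairs were higher than all liver pairs. Neat1, the scaffold RNA of paraspeckles, had ratios of 3.76 in MIN6 and 5.03 in liver and a difference of -1.26 (-2.32 to -0.21, adjusted p = 0.136). Malat1, an RNA of nuclear speckles, had ratios of 2.37 and 3.12 and a difference of -0.76 (-2.59 to 1.07, adjusted p = 0.583). Meg3, an imprinted RNA with islet expression, measured 1026 and 294 in MIN6 nuclear against 7.69 and 1.41 in MIN6 cytoplasmic libraries, and 13.2 and 8.68 in liver nuclear against 1.20 and 0 in liver cytoplasmic libraries. Its difference was 3.93, with an interval from 1.66 to 6.20 (adjusted p = 0.0654). Each of the 4 was called nuclear in both tissues.

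The genes were then described by lists of pathway and complex members. A list is given by its counts and its median difference, beside a median of -0.02 and shares of 20.6% and 22.0% with separated library pairs over all genes. Cytosolic ribosomal proteins, which build the translating ribosome, had positive differences nearly throughout: 69 of 72 lay above 0, 39 (54.2%) had all MIN6 pairs above all liver pairs and none had the reverse. Their median ratio was -1.64 in MIN6 and -2.74 in liver, and the median difference was 0.95, with 1 gene called, Rplp0. Aminoacyl-tRNA synthetases, which charge tRNAs with amino acids, had a median difference of 0.93 with 19 of 22 positive and none called. The methionine enzyme Mars differed by 1.96 (adjusted p = 0.0789) and the tyrosine enzyme Yars by 2.10 (adjusted p = 0.0781). Translation factors had a median of 0.39 with none of 44 called, cytosolic heat shock proteins 0.47 with none of 23, and the proteasome 0.48 with none of 42.

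Metabolic lists lay on the same side. Oxidative phosphorylation, the nuclear-encoded subunits of the respiratory chain and ATP synthase, had a median difference of 0.57; 45 of 62 were positive, 3 were called (Ndufs8, Uqcrc1 and Cox6a1), and 29 (46.8%) had all MIN6 pairs higher against 4 (6.45%) with the reverse. Fatty acid oxidation and peroxisome genes had a median of 0.92 over 19 genes with 1 called, Acads, but their median lay 0.93 above that of all genes and only 0.16 above it when the limit was a mean of at least 10 FPKM. Glycolysis and gluconeogenesis genes had a median of 0.74 over 19 genes, of which 16 were positive and 1, Pcx, was called. Cholesterol and fatty acid synthesis had 0.58 over 31 genes with 2 called, Tm7sf2 and Scd1, and iron and antioxidant genes had 0.75 over 25 with Gstp1 called. Only 6 plasma protein genes reached the level limit in MIN6. All 6 were positive, with a median of 1.32, from 0.29 for Igfbp4 to 5.13 for Apoe. Their median lay 1.33 above that of all genes, but 0.17 above it with a mean of at least 10 FPKM. Agt, angiotensinogen, differed by 2.33 (adjusted p = 0.0587). Mitochondrial ribosomal proteins had a median of 0.23 over 61 genes, with Mrpl18 called in the opposite direction.

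Lists of RNA-processing genes lay on the other side. Of 42 hnRNP and RBM proteins, which bind nascent and mature mRNA, 36 had a negative difference, the median was -0.59, and 17 (40.5%) had all liver pairs higher against 1 (2.38%) with the reverse; Cirbp was called. Their median ratio was -0.22 in MIN6 and 0.37 in liver. SR-related scaffold and U1 genes had a median of -0.48 with 18 of 22 negative and Luc7l2 called, and SR splicing factors had -0.52 with 9 of 15 negative and Srsf2 called. The core spliceosome had -0.47 with 22 of 30 negative and none called, although its median ratio was -0.19 in MIN6 and -0.23 in liver, in the other order. RNA polymerase II and Mediator genes had -0.34 over 33 with Polr2g called, chromatin regulators -0.20 over 55 with none called, and zinc finger genes -0.28 over 41 with none called. Relative to all genes, the zinc finger list turned to the other side with a mean of at least 10 FPKM, from -0.26 to 0.56. CLK and other splicing kinases had a median of 0.61 over 9 genes and none called, but relative to all genes they turned from 0.62 to -0.79 with a mean of at least 10 FPKM, so no side is given.

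Lysosomal and secretory granule genes also lay on the liver side. Lysosome genes had a median difference of -0.64 with 23 of 29 negative and 12 (41.4%) with all liver pairs higher. Ids was called, on liver values all below 1 centred FPKM. Of the 29 insulin granule genes, 7 reached the limit in liver: Rab3a, Vamp2, Pam, Cpd, Furin, Atp6ap1 and Atp6ap2. Their median was -1.78, 6 of 7 had all liver pairs higher, and 2 were called. Pam, which amidates peptide hormones, differed by -1.91 (adjusted p = 0.106) and Atp6ap2, an accessory protein of the proton pump, by -1.78 (adjusted p = 0.083). The granule cargo genes Ins1, Ins2, Iapp, Chga and Scg2 were listed at 0 in every liver library and could not be compared. Immediate early genes had a median of -1.01 over 7 genes and clock genes -0.52 over 6, with none called in either, and in both lists the median ratio was the higher in MIN6, in the other order. Pax6 was the only beta-cell transcription factor compared, with a difference of 1.66 (adjusted p = 0.119).

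The sides of the lists relative to the median gene were the same under the scalings tried, apart from 3 lists. Centring after the log moves all genes alike and so gives the gaps of the authors' scaling. For ribosomal proteins the gap between the list's median and that of all genes ran from 0.81 to 1.13 over the scalings, for oxidative phosphorylation from 0.42 to 0.91, for hnRNP and RBM proteins from -0.62 to -0.53 and for insulin granule genes from -1.83 to -1.44. The gap changed sign with the scaling for actin and tubulin (-0.29 to 0.26), for proteins of entry into the endoplasmic reticulum (-0.18 to 0.23) and for cell cycle genes (-0.72 to 0.10), so no side is given for these. Of the 32 lists with a gap, 22 kept their side under every alternative run, single libraries left out included. Besides the 3 above, the CLK and zinc finger lists, mRNA export and nuclear pore, chaperones of the endoplasmic reticulum, transporters, snoRNA host genes and metabolic transcription factors changed side under at least 1. The gap of SR splicing factors was -0.51, but -0.06 with no filter, and that of heat shock proteins 0.49, but 0.05 with a mean of at least 10 FPKM. Of the lists not yet given, the median difference was 0.36 for snoRNA host genes (8 genes), -0.18 for mRNA export and nuclear pore (26), -0.27 for metabolic and endoderm transcription factors (19, Atf4 called), -0.21 for chaperones of the endoplasmic reticulum and the unfolded protein response (31, Atf4 called), -0.09 for solute and ABC transporters (88, with 2 called each way), -0.40 for glucose sensing and KATP channel genes (3) and -0.76 for nuclear long noncoding RNAs (3). With each of the 8 libraries left out in turn, the gap of ribosomal proteins ran from 0.57 to 1.48 and that of hnRNP and RBM proteins from -0.74 to -0.37.

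**Figure D3:**
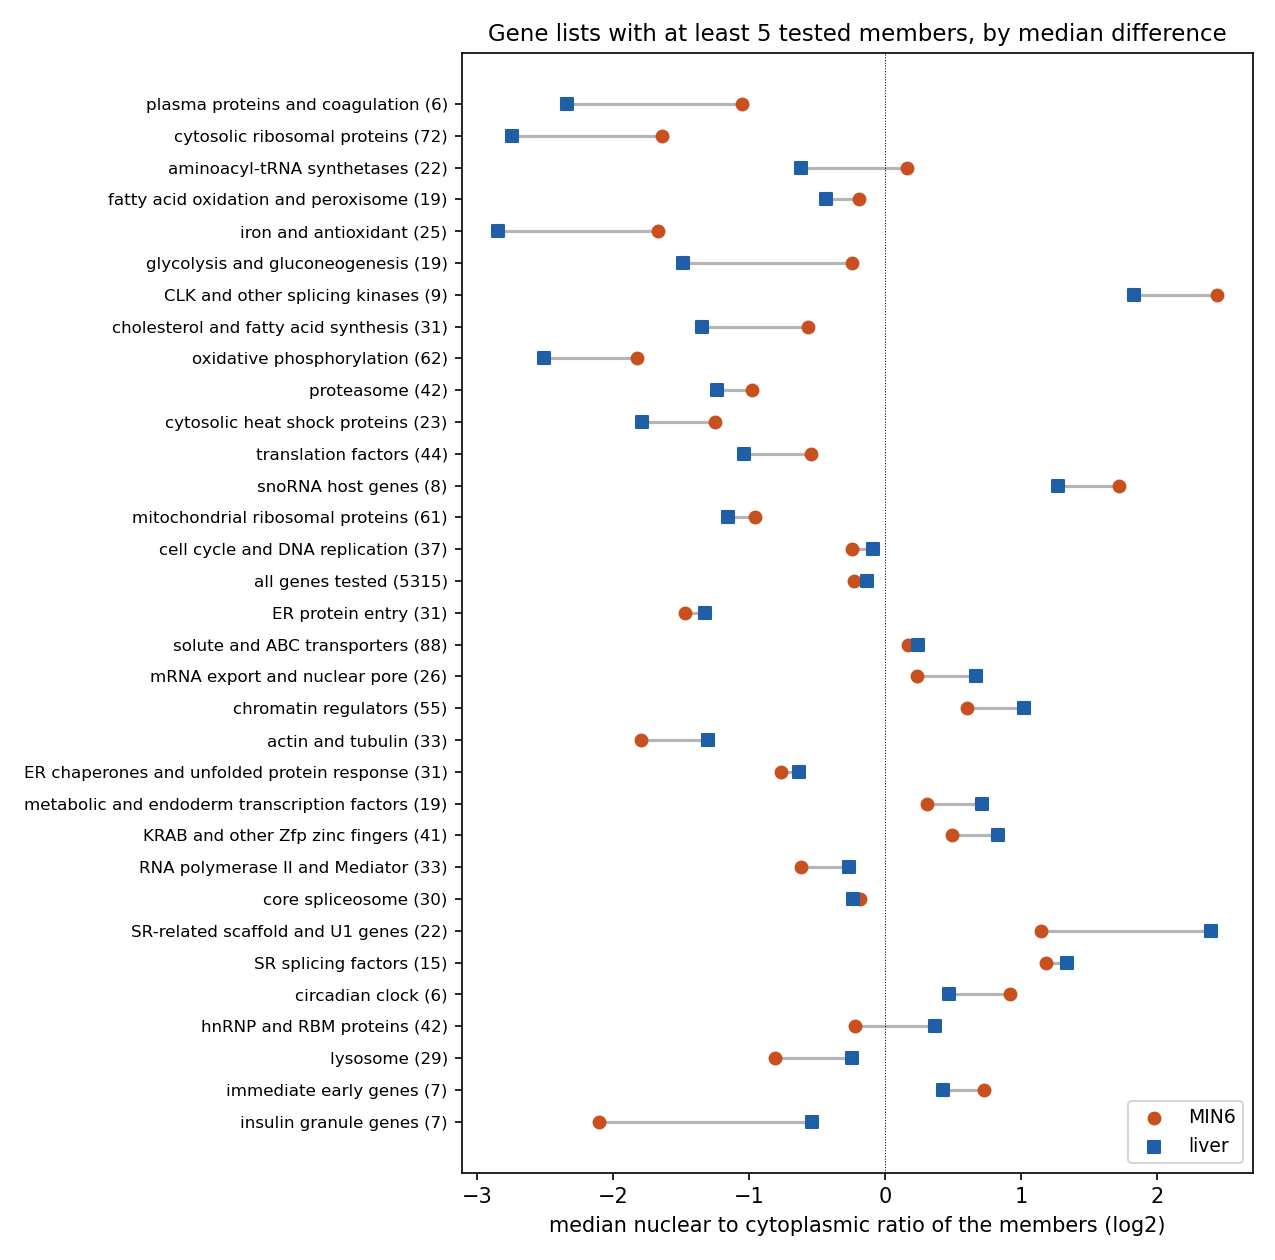
Median nuclear to cytoplasmic log2 ratio of each gene list in MIN6 (circles) and liver (squares), with the number of genes compared in brackets and lists ordered by median difference. Ribosomal proteins sit at -1.64 in MIN6 and -2.74 in liver, and hnRNP and RBM proteins at -0.22 and 0.37; where the marks run against the order, the median of the differences and the difference of the medians have opposite signs.

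The difference varied with properties of the transcript. In 5 equal groups of genes by GC content of the longest transcript, the median difference was -0.47, -0.20, 0.06, 0.22 and 0.38 from the lowest to the highest, and the Spearman rho across 5293 annotated genes was 0.262. The lowest group, with 33.4 to 45.7% GC, held 2 of the 40 genes called more nuclear in MIN6 and 14 of the 46 called more nuclear in liver, and the highest, with 56.6 to 71.8% GC, held 14 and 8. The MIN6 ratio followed GC content more closely (rho 0.354) than the liver ratio did (rho 0.198). By mean level the medians were -0.36, -0.18, -0.02, 0.15 and 0.40 (rho 0.219), and by exon number -0.33, -0.14, 0.04, 0.12 and 0.24 (rho 0.170). By transcript length the relation was weak and opposite, from 0.13 in the shortest to -0.23 in the longest group (rho -0.088). These are descriptions across genes that share the same 8 libraries, and the middle 50% of genes overlapped between all groups.

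Once the GC trend was removed, 31 genes were called more nuclear in MIN6 and 29 more nuclear in liver, 28 and 25 of them among the original calls. Once the trend with mean level was removed, the counts were 49 and 53. The gap of ribosomal proteins, 0.97 with both trends in place, was 1.01 without the GC trend and 0.55 without the level trend. That of oxidative phosphorylation, 0.58, was 0.61 and 0.29, and that of hnRNP and RBM proteins, -0.58, was -0.27 and -0.76.

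**Figure D4:**
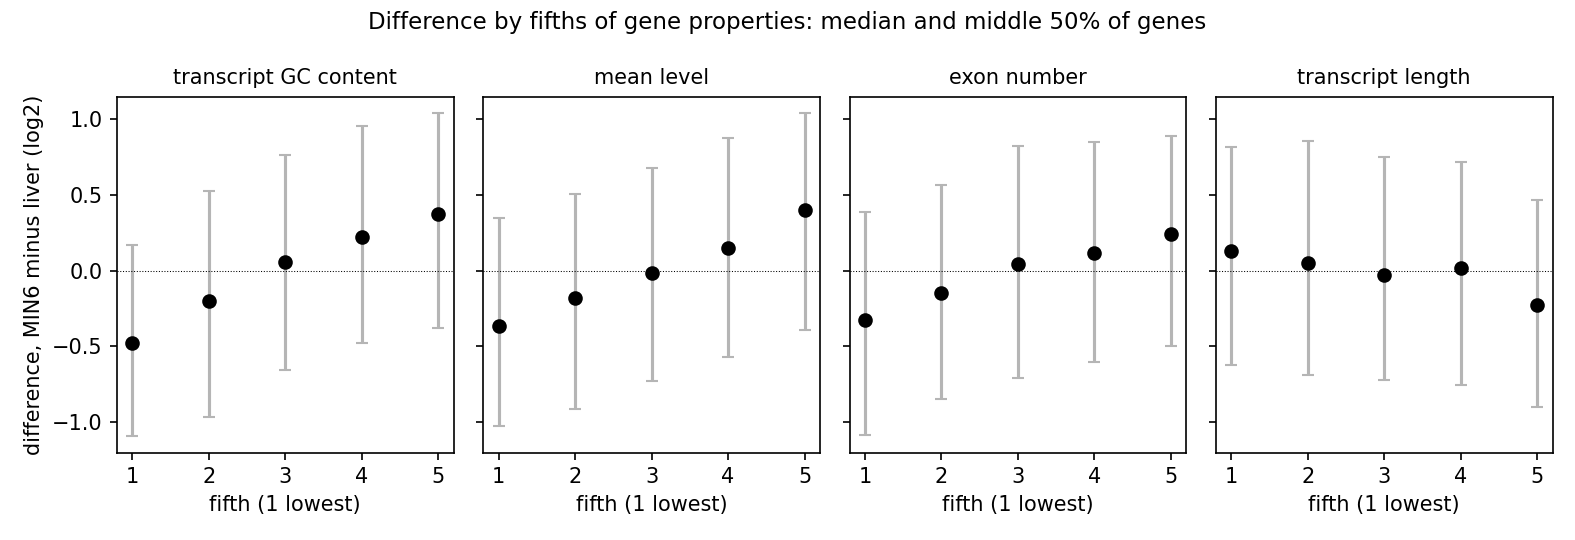
Difference of ratios (MIN6 minus liver, log2) in 5 equal groups of genes by transcript GC content, mean level, exon number and transcript length; points are medians and bars span the middle 50% of genes. The median climbs from -0.47 to 0.38 with GC content and from -0.36 to 0.40 with mean level.

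By class of RNA, small RNA genes stood furthest from the rest. The 5168 protein-coding genes had a median difference of -0.01, with 38 called more nuclear in MIN6 and 45 more nuclear in liver. The 49 long noncoding genes had a median of -0.53, with 1 called, Gm13632, which was more nuclear in liver. Gm13632 was listed at 0 in both liver cytoplasmic libraries, so a liver ratio above 0 followed from the level limit. The 29 small RNA genes were nuclear in both tissues, with median ratios of 2.99 in MIN6 and 3.97 in liver and a median difference of -1.83, but none was called, and FPKM of genes shorter than a fragment are poorly determined. The 47 pseudogenes had a median of 0.12 with 2 called, Gm4076 and Gm1840. Genes with an annotated transcript that retains an intron had a median difference of 0.08 over 3624 genes, and those with none had -0.22 over 1669.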

How the data were processed

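PolyA RNA libraries of 2 fractions of MIN6 and liver, 2 per group and 8 in all, were read from 1 table of 26520 genes. Reads were aligned with TopHat and quantified with Cuffdiff on mm10, per the submitters' processing notes. The deposited values are taken as FPKM because Cuffdiff gives FPKM; the file header names no unit, and versions, annotation, strandedness and how the authors scaled the libraries are not stated in the labels or the file. Positions, exons and GC content came from GENCODE M21 (25584 identifiers matched).

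Genes were kept where the mean reached 1 FPKM in each tissue. Each column was divided by its median and multiplied by the geometric mean of the 8 medians. Values were fitted as log2(value + 1) with limma 3.58.1 in R 4.3.3 (no trend, all 8 libraries, 1 shared spread), so folds of low genes are understated. Tests were two-sided with Benjamini-Hochberg adjustment over 5315 genes, threshold 0.05. Depth was estimated from the value of 1 read in genes with 1 transcript. Estimated reads and floors cover counting error only.

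The genes named are the up to 12 with the largest called difference in each direction that reached 10 centred FPKM in the higher fraction of each tissue, with separated library pairs and an unshared, established symbol (8 and 10 qualified), the called list members with the largest differences (up to 3 each way), and the topic genes Mlxipl, Neat1, Malat1 and Meg3; Nlrp6 and Gcgr were below the level limit in MIN6. A result on 1 gene is not reported here, and that gene was left out of the lists. The members and the 35 lists were chosen with earlier results of these data known. The alternatives were other pseudocounts, filters, scalings and gene sets, a replicate block, a limma trend and leaving out each library.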

Additional observations from a re-analysis of the deposited data

Results flagged for a closer look

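For 33 named genes the nuclear to cytoplasmic ratio differed between the tissues by a test of the difference itself (limma, adjusted p under 0.05 over 5315 genes). They are listed because the same contrast gave different results in MIN6 and liver, and each value is the log2 ratio in MIN6 minus that in liver.

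More nuclear in MIN6 were Nme2, at 6.90, and Apoe, at 5.13, the former beside its exon-sharing neighbour Gm20390 with the opposite sign. Among mitochondrial enzymes and carriers the value was 3.63 for Pcx, 3.18 for Slc25a47, 3.10 for Lonp1, 2.97 for Acads, 2.65 for Gls2 and 2.65 for Slc25a23. Among subunits of the respiratory chain it was 2.61 for Ndufs8, 2.59 for Uqcrc1 and 2.40 for Cox6a1. Among other metabolic enzymes it was 3.95 for Cyp2e1, 3.14 for Tm7sf2, 2.65 for Scd1 and 2.17 for Gstp1. The ribosomal protein gene Rplp0 had 2.29.

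More nuclear in liver were Mrpl18, at -4.36, and Josd2, at -4.08. Among granule genes the value was -3.56 for Vamp2 and -3.39 for Rab3a. Among RNA-binding, transcription and polymerase genes it was -3.19 for Cirbp, -3.03 for Atf4, -3.03 for Polr2g, -2.98 for Luc7l2 and -2.70 for Srsf2. Among mitochondrial carriers it was -3.08 for Slc25a51 and -2.82 for Slc25a25. The rest were Prss53 at -3.54, Degs1 at -3.13, Agpat1 at -2.59, Trp53inp2 at -2.52, Ids at -2.35 and Kctd2 at -2.29. All 33 kept their sign without each library in turn. Their library pairs were separated, as in all called genes, so the sign could hardly change and gives no support. None of the 33 passed the threshold in every one of those 8 fits.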

How the results depend on the processing

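The counts of called differences moved with nearly every choice. Counts are given as more nuclear in MIN6, then more nuclear in liver, against 40 and 46. They were 7 and 17 with a pseudocount of 0.1 and 338 and 224 with 5. With no filter they were 603 and 568 of 16196 genes. With a mean of at least 10 they were 21 and 35 of 650 genes. Both are larger shares than 40 and 46 of 5315. The counts were 1412 and 36 with the authors' scaling and 69 and 456 with equal sums. They were 66 and 162 with equal upper quartiles and 58 and 90 when centred after the log. They were 102 and 118 among protein-coding genes only and 78 and 74 with a limma trend. Alternatives chosen after seeing the data gave 68 and 67 without genes that share at least 10% of their exon length, 87 and 116 with at least 10 estimated reads in each tissue, and 31 and 29 with the GC trend removed. Without each library in turn the counts ran from 0 to 45 and from 0 to 67. With a replicate block they were 29 and 27. Same-numbered libraries hardly deviated together (r 0.0393 in MIN6 and 0.048 in liver). That does not settle whether equal numbers share material, which the labels do not say.

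Genes nuclear within a tissue, in MIN6 and in liver, numbered 2319 and 1960 with no filter, 196 and 196 with a mean of at least 10, and 336 and 211 with the authors' scaling, and in liver from 696 to 1079 without single libraries. Genes cytoplasmic within a tissue numbered 277 and 269 with a mean of at least 10; in liver they numbered 3549 with the authors' scaling and 842 with equal sums, and in MIN6 1156 when centred after the log. Genes with separated library pairs numbered 3195 and 3552 with no filter and 167 and 167 with a mean of at least 10. They numbered 3018 and 174 with the authors' scaling and 566 and 1872 with equal sums. All these counts are of 16196 genes with no filter and of 650 with a mean of at least 10, against 5315 in the main setting. The correlation of the tissues' ratios was 0.562 with no filter, 0.841 with a mean of at least 10, and 0.691 to 0.759 without single libraries. The cause was not tested. A single named gene changed sign: Malat1, at -0.76 in the main setting, ran from -1.82 to 0.13 without single libraries, the latter without MIN6 nuclear replicate 1. Depth limits low liver cytoplasmic values most, where 335 and 360 of the genes compared were listed at 0.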

Other observations

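Several called genes share a cellular role, and they were grouped after their values were seen, so no test is given. The share of such genes among all genes compared was not counted, so no excess in either direction is read from the names. Further proteins of mitochondria were among the genes called more nuclear in MIN6: besides Pcx, Lonp1, Gls2, Slc25a47, Slc25a23, Acads, Ndufs8, Uqcrc1 and Cox6a1, these are Trap1, a mitochondrial chaperone, with a difference of 2.97, Clpb, a disaggregase, with 2.89, Aifm1, an oxidoreductase of the space between the membranes, with 2.86, and Aldh7a1, an aldehyde dehydrogenase, with 2.48. Others were called more nuclear in liver: Mrpl18, Slc25a25, Slc25a51 and Sco2, a copper chaperone with a difference of -3.45 that shares 91.8% of its exon length with Ncaph2 and Tymp.

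Ramp2, a partner of the adrenomedullin receptor, had the largest difference towards liver among the called genes, at -5.45 ± 0.57 (SE, adjusted p = 0.0169), with ratios of -1.65 in MIN6 and 3.80 in liver. It was listed at 0 in both liver cytoplasmic libraries, so the fitted difference depends on the pseudocount. Ramp2 passed the level limit in liver through its nuclear libraries alone, so a liver ratio above 0 followed from that choice. Its MIN6 nuclear values rest on about 5 and 15 estimated reads, and 33.4% of its exon length is shared with Vps25. Tspan7, a tetraspanin, followed at -4.83 ± 0.87, with 0 and 4.09 centred FPKM in the liver cytoplasmic replicates. Fuca2, a fucosidase, was also called more nuclear in liver at -3.76, with 3.43 and 0.109 centred FPKM in the liver cytoplasmic replicates. So were the lysosomal genes Atp6v1h, of the proton pump, at -2.51, and Ostm1, of a chloride transporter, at -2.52. The cytokine receptor chain Il6st was called in this direction at -3.71. Genes of intraflagellar transport were called in both directions: Ift172 at 4.03 and Ift43 at 3.21, more nuclear in MIN6, and Ift52 at -2.44, more nuclear in liver.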
